A study of Mus musculus with 6 samples.

Results

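The transcripts of 9 hormone receptors were followed in CD34hi and CD34lo fibroblasts of the pubertal mouse mammary gland. They were chosen by name, as the genes of the count table whose identifiers map to *Esr1*, *Esr2*, *Pgr*, *Nr3c1*, *Ghr*, *Prlr*, *Thra*, *Thrb* and *Vdr*, and all 9 were found among its 27179 genes. The rule used no measured value, although the receptors were chosen with earlier results of these data known. The cells were mammary fibroblasts (Lin–CD24–Pdgfrα+) of female mice (FVB/N in the labels and FVB/NJ in the study's methods) at 6 weeks of age, for which the labels name no transgene and no treatment, sorted by CD34 into a high and a low population. There were 3 pools of 2 mice each, and every pool gave 1 CD34hi and 1 CD34lo library, so that 3 libraries per population and 6 in all were sequenced. Values belong to a pool of mice, not to a single animal, and neither the estrous stage nor hormone levels in the blood are given in the sources used here.

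Steroid, thyroid hormone and vitamin D receptors are nuclear proteins that bind their ligand and act on transcription directly, whereas the growth hormone and prolactin receptors sit in the cell membrane and signal through JAK2 and STAT5. At puberty, ovarian estrogen and pituitary growth hormone drive elongation of the mammary ducts, and progesterone and prolactin act on side branching and on the alveoli of pregnancy. Part of the action on the epithelium is known to run through the stroma, where estrogen and growth hormone receptors and the growth factor IGF1 have roles.

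Between the populations, the receptors for estrogen (*Esr1*), progesterone (*Pgr*) and thyroid hormone (*Thra*) were higher in CD34hi fibroblasts, and the prolactin receptor (*Prlr*) was higher in CD34lo fibroblasts. The mean level of *Pgr* was 60.1-fold, that of *Esr1* 3.83-fold and that of *Thra* 1.5-fold as high in CD34hi as in CD34lo fibroblasts, and that of *Prlr* was 2.97-fold as high in CD34lo as in CD34hi fibroblasts. The receptors for glucocorticoid (*Nr3c1*), growth hormone (*Ghr*), thyroid hormone beta (*Thrb*) and vitamin D (*Vdr*) did not pass the test, and *Esr2* was close to the limit of detection in every library. Levels are given as CPM, that is, counts relative to a library total scaled by TMM, with 3 libraries behind every mean ± SD. Differences are log2 fold changes of CD34hi over CD34lo from edgeR's quasi-likelihood test across all tested genes, with a Benjamini-Hochberg adjusted p-value under 0.05 as the threshold.

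Of the 9 receptors, 8 passed the filter on low counts, and of these 3 (37.5%) were higher in CD34hi and 1 (12.5%) was higher in CD34lo fibroblasts. Over all 15219 tested genes, 35.6% differed, 16.9% being higher in CD34hi and 18.7% in CD34lo fibroblasts, so a call as such was common between these populations. The median log2 fold change was 0.07 over the 8 receptors and -0.01 over all tested genes. The libraries held 28764779 to 52402410 counts on genes, and at these totals 3 counts, taken as the floor of detection, correspond to 0.0553 to 0.108 CPM. *Cd34*, on which the cells were sorted, had 634 ± 158 CPM in CD34lo and 2571 ± 75.2 CPM in CD34hi libraries, the direction that the labels give.

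**Figure D1:**
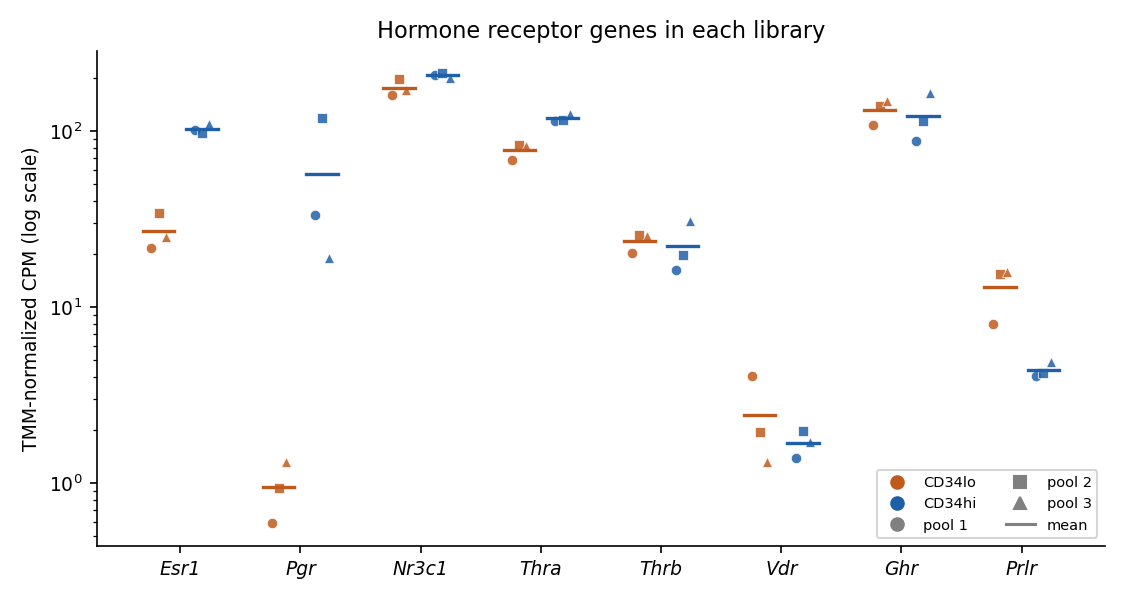
Level of the 8 tested receptors in each library, in TMM-normalized CPM on a log scale, with the population as color, the mouse pool as shape and a line at the mean. The points of the 2 populations do not overlap for *Esr1*, *Pgr*, *Nr3c1*, *Prlr* and *Thra*, and the CD34hi points of *Pgr* spread from 18.9 to 119 CPM.

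The sequences just before the start site are shown for *Esr1*, *Pgr* and *Prlr*, which had the largest fold changes among the receptors past the threshold. RefSeq promoter entries (GRCm38.p6) were found for 7 of the 9 receptors, and not for *Thra* and *Nr3c1*. Each line holds the 250 bases before the start site on the plus strand, 5′ to 3′, and capitals mark a match, on either strand, to TATAAA, the letters of a core promoter element, to CCAAT, which the factor NF-Y binds, or to GGGCGG, which SP1 binds. The windows are chr10:4611739-4611988 for *Esr1*, chr9:8899583-8899832 for *Pgr* and chr15:10176988-10177237 for *Prlr*. Of the start sites in the RefSeq entries used, the one nearest to the counted start of the gene was taken. The RefSeq span of *Pgr* begins 933 bases before that start, so its window lies within the span.
Esr1: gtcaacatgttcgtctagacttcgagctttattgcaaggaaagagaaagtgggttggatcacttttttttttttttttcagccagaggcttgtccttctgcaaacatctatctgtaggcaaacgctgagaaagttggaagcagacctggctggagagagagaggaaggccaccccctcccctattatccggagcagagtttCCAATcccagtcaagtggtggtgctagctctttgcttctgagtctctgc
Pgr: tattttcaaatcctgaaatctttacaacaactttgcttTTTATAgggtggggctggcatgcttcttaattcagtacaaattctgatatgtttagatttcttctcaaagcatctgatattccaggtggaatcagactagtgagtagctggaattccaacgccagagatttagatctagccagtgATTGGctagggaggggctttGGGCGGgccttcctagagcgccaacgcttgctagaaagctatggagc
Prlr: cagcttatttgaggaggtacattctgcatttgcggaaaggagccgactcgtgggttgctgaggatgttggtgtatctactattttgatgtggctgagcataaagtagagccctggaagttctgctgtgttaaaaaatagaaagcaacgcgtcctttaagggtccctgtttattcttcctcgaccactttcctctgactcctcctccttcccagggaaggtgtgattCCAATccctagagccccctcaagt
The *Esr1* window held 1 CCAAT match, which lay 49 bases before the start. In the *Pgr* window a TATAAA match lay 212 bases before the start on the minus strand, a CCAAT match 67 bases before it on the minus strand and a GGGCGG match 47 bases before it on the plus strand. The *Prlr* window held 1 CCAAT match, 24 bases before the start. Such matches are frequent, with TATAAA in 12.4%, CCAAT in 33.8% and GGGCGG in 32.7% of the 32851 RefSeq windows of the same length. The letters of the palindromic estrogen response element (GGTCANNNTGACC) were in none of the 3 windows and in 0.0639% of all, those of its half-site (GGTCA) in none of the 3 and in 35.2% of all, and those of the half-site of glucocorticoid and progesterone receptors (AGAACA) in none of the 3 and in 16.1% of all.

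*Esr1* encodes estrogen receptor alpha, the estrogen receptor that ductal growth requires. It lies on chromosome 10 from 4612046 to 5003761 on the plus strand (GRCm38, gene identifier 13982). Its level was 21.6, 34.1 and 24.9 CPM in the CD34lo libraries of pools 1, 2 and 3, and 102, 97.6 and 109 CPM in the CD34hi libraries of the same pools. The CD34hi libraries were all above the CD34lo libraries and lay closer together on the log scale. The mean was 26.9 ± 6.49 CPM in CD34lo and 103 ± 5.99 CPM in CD34hi fibroblasts, and within pools CD34hi was 4.71-, 2.86- and 4.39-fold as high. The log2 fold change was 1.94 ± 0.17 (SE), with a 95% confidence interval from 1.55 to 2.33 and an adjusted p = 5.45e-05. In the bulk libraries, fewer cells with a transcript and less of it per cell cannot be told apart, here or for any other receptor.

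*Esr2*, which encodes estrogen receptor beta, had 3, 2 and 7 counts in the CD34lo libraries and 3, 1 and 0 counts in the CD34hi libraries, 16 in all. It failed the filter on low counts and was not tested. Its highest level was 0.225 CPM, and the library without a count allows up to 0.0662 CPM. No difference was detectable at this depth, and the level was far under that of *Esr1* in both populations.

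*Pgr*, the progesterone receptor, lies on chromosome 9 from 8899833 to 8968611 on the plus strand (18667), and is a known target of estrogen receptor alpha. Its level was 0.590, 0.935 and 1.32 CPM in the CD34lo libraries of pools 1, 2 and 3, from 32, 26 and 41 counts. In the CD34hi libraries it was 33.2, 119 and 18.9 CPM, from 1484, 4301 and 856 counts. All CD34hi libraries were far above all CD34lo libraries, with within-pool folds of 56.2, 127 and 14.3. The mean was 0.948 ± 0.364 CPM in CD34lo and 56.9 ± 54.0 CPM in CD34hi fibroblasts. The log2 fold change was 5.96 ± 0.76 (SE), with a 95% confidence interval from 4.22 to 7.70 and an adjusted p = 0.000419, and it was 4.83 without the CD34hi library of pool 2, the highest one, and 6.71 without pool 3.

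*Pgr* was also among the genes that varied most between CD34hi libraries. Its SD in log2 CPM was 1.36 in CD34hi fibroblasts, above that of 99.5% of tested genes, of which 74 had a larger one, against a median of 0.185. In CD34lo fibroblasts its SD was 0.55, and the median was 0.232. *Esr1* had an SD of 0.08 in CD34hi fibroblasts, lower than the median, so the CD34hi libraries that differed in *Pgr* had nearly the same level of *Esr1*. In CD34lo fibroblasts the SD of *Esr1* was 0.34, above the median. There *Esr1* was highest in pool 2 (34.1 CPM) and lower in pools 1 (21.6 CPM) and 3 (24.9 CPM). Another known target of estrogen, *Greb1*, a cofactor of estrogen receptor alpha, likewise varied between pools. *Greb1* had 7.64, 23.0 and 3.12 CPM in the CD34lo libraries of pools 1, 2 and 3, and 26.7, 78.6 and 18.1 CPM in the CD34hi libraries. Pool 2 was the highest and pool 3 the lowest in both populations, and the ranges of the populations overlapped. The SD of *Greb1* in log2 CPM was 1.43 in CD34lo and 1.10 in CD34hi fibroblasts. The order of pools in *Pgr* was the same as in *Greb1* in CD34hi but not in CD34lo fibroblasts, where pool 3 was highest and pool 1 lowest. *Greb1* was named after its values were seen, and other genes tied to estrogen or progesterone were mixed. In CD34hi libraries, *Krt19* and *Ccnd1* were also highest in pool 2 and lowest in pool 3, while *Areg*, *Igf1* and *Myc* did not have this order. *Greb1* did not pass the threshold between populations with a log2 fold change of 1.88 (adjusted p = 0.0746), whereas with the replicate block, which compares the libraries within pools, it did (2.00, adjusted p = 9.79e-06). Without pool 2 it also passed (2.04, adjusted p = 0.0108), as it did without the CD34lo library of pool 2 (2.90, adjusted p = 0.0163) and without the CD34hi library of pool 3 (2.25, adjusted p = 0.0461). It passed in 7 of 16 alternatives, limma-voom (2.06, adjusted p = 0.047) and the absence of a filter on low counts (1.91, adjusted p = 0.0419) among them. Whether the pools differed in estrous stage was not tested.

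**Figure D2:**
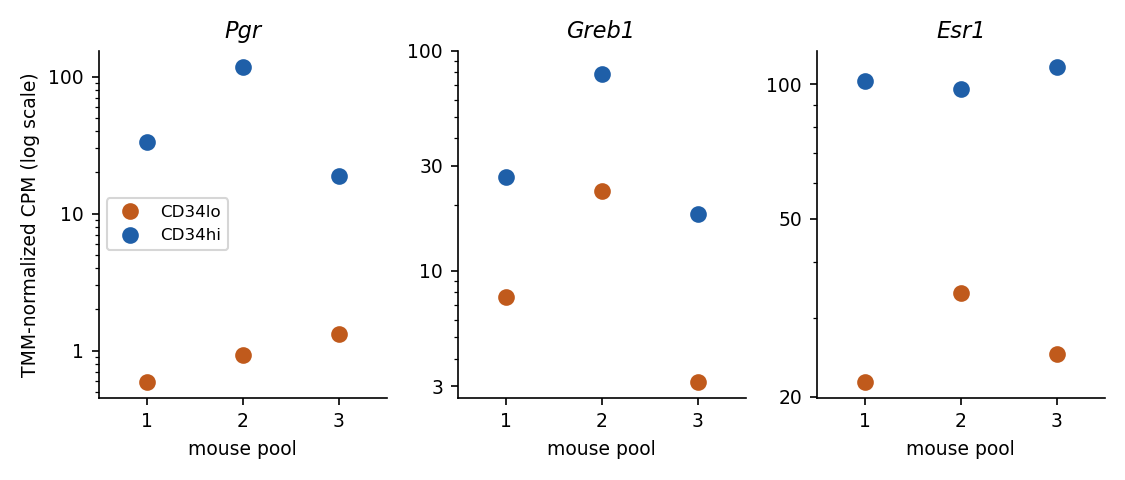
*Pgr*, *Greb1* and *Esr1* in each mouse pool, in TMM-normalized CPM on log scales that differ between panels, with 1 point per library. In the CD34hi libraries *Pgr* and *Greb1* are highest in pool 2 and lowest in pool 3, while *Esr1* stays between 97.6 and 109 CPM.

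*Nr3c1*, the glucocorticoid receptor, was the receptor with the highest CPM in both populations (identifier 14815). It had 161, 198 and 170 CPM in CD34lo and 209, 213 and 199 CPM in CD34hi libraries. The populations did not overlap, but the highest CD34lo and the lowest CD34hi library were nearly equal. The log2 fold change was 0.23, with a 95% confidence interval from -0.04 to 0.51 and an adjusted p = 0.174, so the test did not separate the populations and the interval leaves out a difference of 1 on the log2 scale.

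*Thra* encodes thyroid hormone receptor alpha and lies on chromosome 11 from 98741873 to 98765111 on the plus strand (21833). It had 68.7, 83.7 and 82.7 CPM in CD34lo and 113, 116 and 124 CPM in CD34hi libraries. Every CD34hi library was above every CD34lo library, with within-pool folds of 1.65, 1.39 and 1.5. This gave a log2 fold change of 0.59 ± 0.12 (SE), with a 95% confidence interval from 0.32 to 0.86 and an adjusted p = 0.00467. In RefSeq the span of *Thra* runs 3895 bases past the counted one and reaches *Nr1d1*, a clock gene on the opposite strand whose counted span lies 2824 bases past that of *Thra*. *Nr1d1* moved the other way, from 154 ± 24.9 CPM in CD34lo to 80.7 ± 5.82 CPM in CD34hi fibroblasts, its part in the level of *Thra* was not tested, and the strand setting of the counting is not given in the sources used here. None of the 9 receptors overlapped another gene of the count table.

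*Thrb*, thyroid hormone receptor beta, lies on chromosome 14 from 17660960 to 18038088 on the plus strand (21834). It had 20.4, 25.6 and 25.3 CPM in CD34lo and 16.1, 19.8 and 30.9 CPM in CD34hi libraries. CD34hi was lower in pools 1 and 2 and higher in pool 3, and the populations overlapped. Its log2 fold change was -0.09, with a 95% confidence interval from -0.61 to 0.43 and an adjusted p = 0.791.

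*Vdr*, the vitamin D receptor, lies on chromosome 15 from 97854427 to 97908296 on the minus strand (22337). It was low throughout, with 4.08, 1.94 and 1.32 CPM in CD34lo and 1.39, 1.96 and 1.70 CPM in CD34hi libraries. The CD34lo library of pool 1 stood above the other 5, which overlapped. The log2 fold change was -0.56, with a 95% confidence interval from -1.49 to 0.36 and an adjusted p = 0.318. Its sign rested on that library, since it was 0.07 without it.

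*Ghr*, the growth hormone receptor, lies on chromosome 15 from 3317760 to 3583230 on the minus strand (14600). It had 109, 138 and 148 CPM in CD34lo and 88.2, 113 and 164 CPM in CD34hi libraries. As with *Thrb*, CD34hi was lower in pools 1 and 2 and higher in pool 3. The populations overlapped, and the log2 fold change was -0.11, with a 95% confidence interval from -0.62 to 0.40 and an adjusted p = 0.729.

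*Prlr*, the prolactin receptor, lies on chromosome 15 from 10177238 to 10349180 on the plus strand (19116). It had 8.0, 15.3 and 15.8 CPM in CD34lo and 4.07, 4.19 and 4.90 CPM in CD34hi libraries. Every CD34lo library was above every CD34hi library, with the CD34lo library of pool 1 nearest to them, and the within-pool folds of CD34lo over CD34hi were 1.97, 3.65 and 3.22. The mean was 13 ± 4.35 CPM in CD34lo and 4.39 ± 0.445 CPM in CD34hi fibroblasts. The log2 fold change was -1.56 ± 0.26 (SE), with a 95% confidence interval from -2.16 to -0.97 and an adjusted p = 0.00182. The 2 pituitary hormone receptors, which share the JAK2 and STAT5 pathway, thus differed in their results, and the difference between them was not tested.

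**Figure D3:**
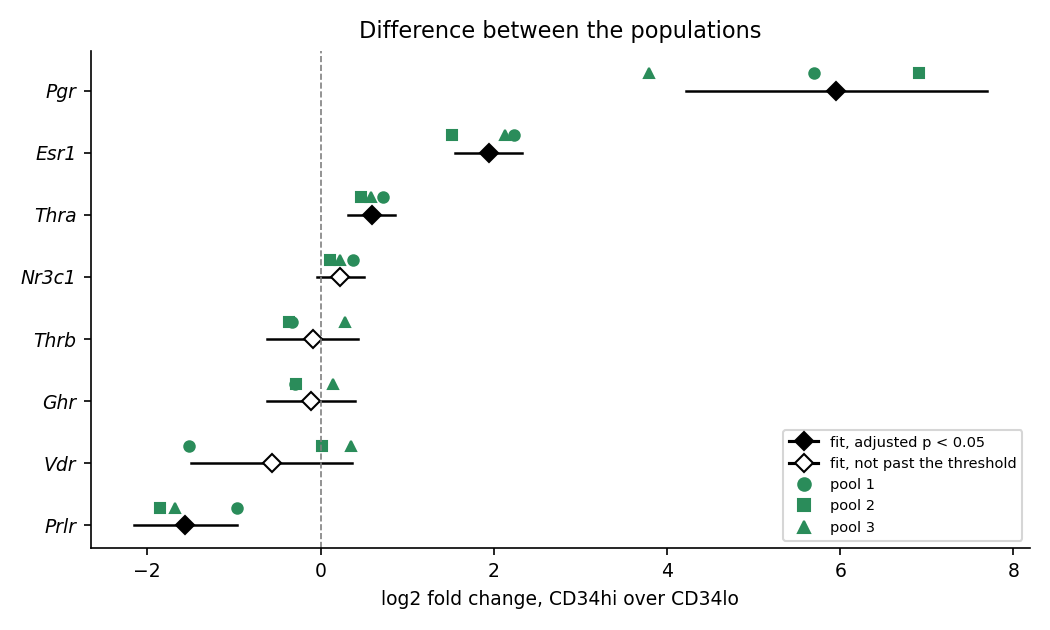
Log2 fold change of CD34hi over CD34lo for the 8 tested receptors, with diamonds and 95% confidence intervals from edgeR and the difference within each mouse pool as green points above them. The intervals of *Pgr*, *Esr1* and *Thra* lie above 0 and that of *Prlr*, from -2.16 to -0.97, below 0, while those of *Nr3c1*, *Ghr*, *Thrb* and *Vdr* include 0.

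Levels of different receptors were compared as RPKM (CPM per kilobase of the gene's counted length). The order rests on these lengths, for example 2246 bases for *Thra* and 13415 bases for *Prlr*, which may not match the transcripts of these cells. By CPM, the CD34hi means were 207 for *Nr3c1*, 122 for *Ghr* and 118 for *Thra*. In CD34lo fibroblasts *Thra* (34.9 ± 3.73 RPKM), *Ghr* (29.8 ± 4.69) and *Nr3c1* (27.9 ± 3.01) were the highest, and the ranges of neighbours in this order overlapped. *Esr1* (6.23 ± 1.5 RPKM) and *Thrb* (3.63 ± 0.449) followed without overlap, then *Prlr* (0.971 ± 0.325) and *Vdr* (0.562 ± 0.332), whose ranges overlapped, then *Pgr* (0.138 ± 0.0529) and *Esr2* (0.0349 ± 0.0278). In CD34hi fibroblasts *Thra* stood alone at the top (52.5 ± 2.54 RPKM). *Nr3c1* (32.7 ± 1.14 RPKM), *Ghr* (27.5 ± 8.71) and *Esr1* (23.8 ± 1.39) came next, with each range overlapping that of its neighbour in the order. *Pgr* (8.26 ± 7.83 RPKM) overlapped *Thrb* (3.40 ± 1.17), and *Vdr* (0.386 ± 0.0659) overlapped *Prlr* (0.327 ± 0.0332). In CD34hi fibroblasts *Esr1* was thus in the range of the growth hormone receptor, and *Pgr* was above *Prlr*, the reverse of their order in CD34lo fibroblasts.

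**Figure D4:**
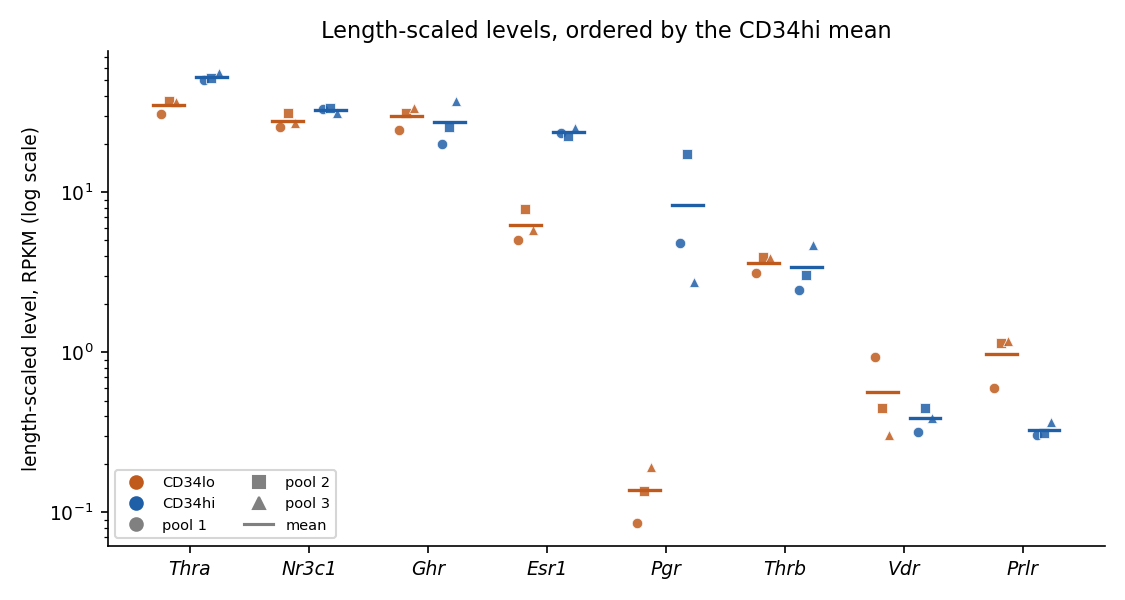
Level of the 8 tested receptors per length, in RPKM on a log scale, with the population as color, the mouse pool as shape and a line at the mean of 3 libraries. *Thra* has the highest mean RPKM in both, and *Pgr* moves from a mean of 0.138 to one of 8.26 RPKM.

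For each tested receptor, the genes with the most similar pattern were sought by the root mean square difference of log2 CPM over the 6 libraries, after each gene was centred on its own mean. *Galm* (0.06) and *Plac9b* (0.06) were nearest to *Esr1*, and *Plac9b* has a near-identical copy with which it may share reads. *Rps6kl1* (0.63) and *Prrt4* (0.68) were nearest to *Pgr*, the largest distances found for any of the 8 receptors. *Cfhr2* (0.09), which may share reads with related genes, was among the nearest to *Prlr*. *Fam234b* and *Pofut1* (both 0.04) were nearest to *Thra*, and *Ubac2* and *Kif13a* (both 0.04) to *Nr3c1*. *Ghr* was the nearest of all tested genes to *Thrb* (0.05), with *Tmco6* (0.06) next, and *Thrb* came second to *Zfp780b* (0.04) for *Ghr*. *Relt* (0.20) and *Grrp1* (0.21) were nearest to *Vdr*. These distances describe 6 libraries of 2 populations and carry no test.

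Other hormone receptors were looked at as a list of 24, of which 15 were tested, 2 being higher in CD34hi and 8 in CD34lo fibroblasts, with a median log2 fold change of -0.72. Those higher in CD34lo fibroblasts were 4 without pool 1, 5 without pool 3 and 5 without the CD34hi library of pool 1, and those higher in CD34hi fibroblasts were between 1 and 3 whichever pool or library was left out. *Oxtr*, the oxytocin receptor, had 0.295, 0.144 and 0.450 CPM in CD34lo and 7.29, 10.6 and 13.5 CPM in CD34hi libraries, a log2 fold change of 5.11 ± 0.38 (adjusted p = 2.22e-05). *Avpr1a*, a vasopressin receptor, fell by 2.95 on the log2 scale from CD34lo to CD34hi (adjusted p = 5.01e-05) and *Paqr6*, of a family of membrane progesterone receptors, by 2.81 (adjusted p = 0.000291). *Gper1*, a membrane receptor that binds estrogen, fell by 2.2 (adjusted p = 0.0268) but had only 66 counts in the 6 libraries, and its call was lost without pool 2 (adjusted p = 0.106), pool 3 (0.0564) or any 1 CD34hi library (0.0583 to 0.104). Without pool 1 or its CD34lo library *Gper1* failed the filter on low counts. The mineralocorticoid receptor *Nr3c2* had a log2 fold change of -0.49 (adjusted p = 0.12), which passed with the replicate block (-0.50, adjusted p = 0.0383). *Fshr* and *Ghrhr* had no count in any library.

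Nuclear receptors act with RXR partners and with coregulators, and steroid receptors are held by chaperones until they bind ligand. Of 18 RXR and coregulator genes, 2 were higher in CD34hi and 1 in CD34lo fibroblasts, and the median log2 fold change was 0.06. Those higher in CD34lo fibroblasts were 0 without pool 1, pool 2 or the CD34hi library of pool 2, 2 without pool 3 and 3 without the CD34hi library of that pool. The coactivators *Ncoa2* (61.8 ± 8.88 to 106 ± 6.37 CPM, log2 fold change 0.77, adjusted p = 0.00195) and *Ncoa4* (39.3 ± 3.39 to 65.0 ± 5.64 CPM, 0.73, adjusted p = 0.00161) were higher in CD34hi fibroblasts. The histone acetyltransferase gene *Crebbp* was lower in CD34hi fibroblasts (-0.52, adjusted p = 0.00728), a call lost without pool 1 (adjusted p = 0.0636), pool 2 (0.122) or the CD34hi library of pool 2 (0.0543). *Rxra*, the most abundant RXR gene, had 66.0 ± 4.10 and 63.7 ± 5.37 CPM in CD34lo and CD34hi fibroblasts, and its log2 fold change was -0.05 (adjusted p = 0.758). Of 10 chaperone genes, *Bag1* was higher in CD34hi (0.91, adjusted p = 0.00272) and *Hsp90aa1* in CD34lo fibroblasts (-0.79, adjusted p = 0.0015), and with the replicate block 2 were called in each direction. Without pool 3 or its CD34hi library 2 were higher in CD34hi fibroblasts. The median of the chaperone genes was -0.13.

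Downstream of the growth hormone and prolactin receptors, 17 genes were tested, and 1 was higher in CD34hi and 4 in CD34lo fibroblasts, with a median log2 fold change of 0.03. With the replicate block 2 were higher in CD34hi and 3 in CD34lo fibroblasts, and without pool 2 or the CD34hi library of pool 3 none was higher in CD34hi fibroblasts. *Igf1*, the growth factor through which growth hormone acts in many tissues, was higher in CD34lo fibroblasts, with 332, 394 and 457 CPM against 136, 108 and 171 CPM, and no overlap. Its log2 fold change was -1.51 (adjusted p = 0.000432), while *Ghr* itself did not pass the test. *Cish*, a feedback inhibitor of STAT5 signalling, was higher in CD34lo fibroblasts as well (128, 122 and 92.7 against 57.2, 54.3 and 43.2 CPM, -1.15, adjusted p = 0.000707). *Ptpn6*, a phosphatase gene with 107 counts in all, was called at -1.36 (adjusted p = 0.0424) but passed in 4 of 16 alternatives. It was lost with the replicate block (adjusted p = 0.0628), with DESeq2 (0.0603), with no filter on low counts (0.0779) and without any 1 pool (0.0772 to 0.232), any CD34hi library (0.103 to 0.167) or the CD34lo library of pool 1 (0.165) or 2 (0.058). The kinase and transcription factor genes at the centre of the pathway did not pass the test, and their differences were 0.25 for *Jak2*, -0.23 for *Stat5a* and 0.36 for *Stat5b* on the log2 scale. *Stat5b* passed with the replicate block (0.37, adjusted p = 0.0281).

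Thyroid hormone reaches its receptors through transporters and deiodinases. Of 10 such genes 8 were tested, and 2 were higher in CD34hi and 2 in CD34lo fibroblasts, or 1 and 4 with the replicate block, with a median log2 fold change of -0.93. With any 1 pool or library left out, 0 or 1 was higher in CD34hi and 2 to 4 in CD34lo fibroblasts, 0 without pool 1 or pool 3 and 4 without pool 2. *Dio2*, the deiodinase that makes the active hormone, had 15.3, 10.4 and 14.8 CPM in CD34lo and 4.83, 4.99 and 6.99 CPM in CD34hi libraries (-1.27, adjusted p = 0.00185). *Slc7a8*, a transporter of amino acids that also carries thyroid hormones, was lower in CD34hi fibroblasts too (36.4 ± 9.39 to 7.87 ± 0.851 CPM, -2.21, adjusted p = 7.38e-05). The transporter genes *Slc16a10* (0.57, adjusted p = 0.0156) and *Slco1c1* (1.04, adjusted p = 0.0481) were higher in CD34hi fibroblasts. The *Slc16a10* call was lost without pool 1 (adjusted p = 0.124) or pool 3 (0.0571), and the *Slco1c1* call passed in 1 of 16 alternatives. It was lost with limma-voom (0.0583), with DESeq2 (0.0601), with upper-quartile scaling (0.0586), with no filter on low counts (0.0693), with the replicate block (0.0867) and without any 1 pool or library (0.0794 to 0.202). *Dio3*, which inactivates the hormone, had a log2 fold change of -2.16 (adjusted p = 0.0543) and passed with the replicate block (-2.33, adjusted p = 0.00716). Of 8 genes of vitamin D handling 5 were tested and 0 passed with edgeR, limma-voom or DESeq2 or with the replicate block, with 1 (*Cubn*, -0.95) at an unadjusted edgeR p under 0.05, 1 called without the CD34lo library of pool 2, and a median of -0.42.

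Genes known to respond to each hormone were counted next, on lists drawn from several tissues, so that a list's name does not give the regulator in these cells. Of 15 glucocorticoid targets, 2 were higher in CD34hi and 6 in CD34lo fibroblasts, and the median log2 fold change was -0.35. Without pool 1 or the CD34hi library of pool 2, 3 were higher in CD34lo fibroblasts. *Zbtb16* (1.90, adjusted p = 0.00138), a transcription factor gene, and *Glul* (1.59, adjusted p = 0.000447), the glutamine synthetase gene, were higher in CD34hi fibroblasts. *Tsc22d3* (-1.20, adjusted p = 0.00449), an anti-inflammatory mediator, and *Sgk1* (-1.06, adjusted p = 0.000624), a kinase gene, were higher in CD34lo fibroblasts. *Hsd11b1*, whose enzyme regenerates active glucocorticoid, had 155, 164 and 194 CPM in CD34lo and 16.3, 22.0 and 88.3 CPM in CD34hi libraries (-2.02, adjusted p = 0.0212). The *Hsd11b1* call was lost without pool 1 (adjusted p = 0.0604), pool 2 (0.0973), the CD34hi library of pool 2 (0.0623) or the CD34lo library of pool 3 (0.0633). *Fkbp5*, a target often read as a sign of glucocorticoid action, had 18.7 ± 3.45 and 21.7 ± 4.13 CPM and did not pass the test.

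Of 20 genes tied to estrogen or progesterone, 17 were tested, *Pgr* among them, and 2 were higher in CD34hi and 8 in CD34lo fibroblasts, with a median log2 fold change of -0.32. *Krt19*, a keratin gene, was the other one higher in CD34hi fibroblasts (8.03 ± 1.00 to 50.7 ± 12.0 CPM, 2.66, adjusted p = 2.47e-05). *Wnt4*, a progesterone target of the mammary epithelium, had 42.5, 20.3 and 31.5 CPM in CD34lo and 1.27, 0.469 and 0.529 CPM in CD34hi libraries, opposite in direction to *Pgr*, with a log2 fold change of -5.35 ± 0.42 (adjusted p = 3.02e-05). *Nr2f2*, a nuclear receptor gene, was lower in CD34hi fibroblasts as well (68.9 ± 17.5 to 7.67 ± 0.570 CPM, -3.16, adjusted p = 8.84e-06). *Tnfsf11*, which encodes RANKL, the progesterone-induced ligand of the epithelium, was low in both, with a highest level of 1.68 CPM, and was called at -2.80 (adjusted p = 0.0255). Its call was lost without pool 1 (adjusted p = 0.175), pool 3 (0.0583), the CD34lo library of pool 1 (0.131) or the CD34hi library of pool 1 (0.062) or 3 (0.0673). *Areg*, an estrogen target of the epithelium, had 2.17 ± 1.00 and 1.76 ± 0.804 CPM and did not pass.

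Of 9 thyroid hormone targets 5 were tested, and 3 were higher in CD34hi and 1 in CD34lo fibroblasts, with a median log2 fold change of 1.07. *Mbp* (1.88, adjusted p = 0.000226), *Me1* (1.19, adjusted p = 0.00113), the malic enzyme gene, and *Bcl3* (1.07, adjusted p = 0.0313) were higher in CD34hi fibroblasts. The *Bcl3* call was lost without pool 1 (adjusted p = 0.13), either library of pool 1 (0.0678 for CD34lo and 0.0766 for CD34hi), the CD34hi library of pool 2 (0.0848) or the CD34lo library of pool 3 (0.0597). *Klf9*, a direct target of thyroid hormone and glucocorticoid, was higher in CD34lo fibroblasts (-0.89, adjusted p = 0.00083), opposite in direction to *Thra*. Of 9 vitamin D targets 5 were tested, with a median of -0.73, and 1 was higher in CD34hi and 2 in CD34lo fibroblasts, or 2 and 3 with the replicate block. None was higher in CD34lo fibroblasts without pool 1 or either of its libraries, and 1 was without pool 2, the CD34lo library of pool 2 or the CD34hi library of pool 3. *Slc8a1*, a calcium exchanger gene, was higher in CD34hi fibroblasts (1.96, adjusted p = 0.000253). *Fgf23* (1.35 ± 0.917 to 0.285 ± 0.228 CPM, -2.25, adjusted p = 0.0449) was higher in CD34lo fibroblasts, as was *Tnfsf11*, which this list holds too. The *Fgf23* call was lost without pool 1 (adjusted p = 0.125), pool 2 (0.0954), either library of pool 1 (0.0734 for CD34lo and 0.1 for CD34hi), the CD34lo library of pool 2 (0.146) or the CD34hi library of pool 3 (0.0791). *Cyp24a1*, the target by which vitamin D action is usually read, had 8 counts in the 6 libraries and was not tested.

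**Figure D5:**
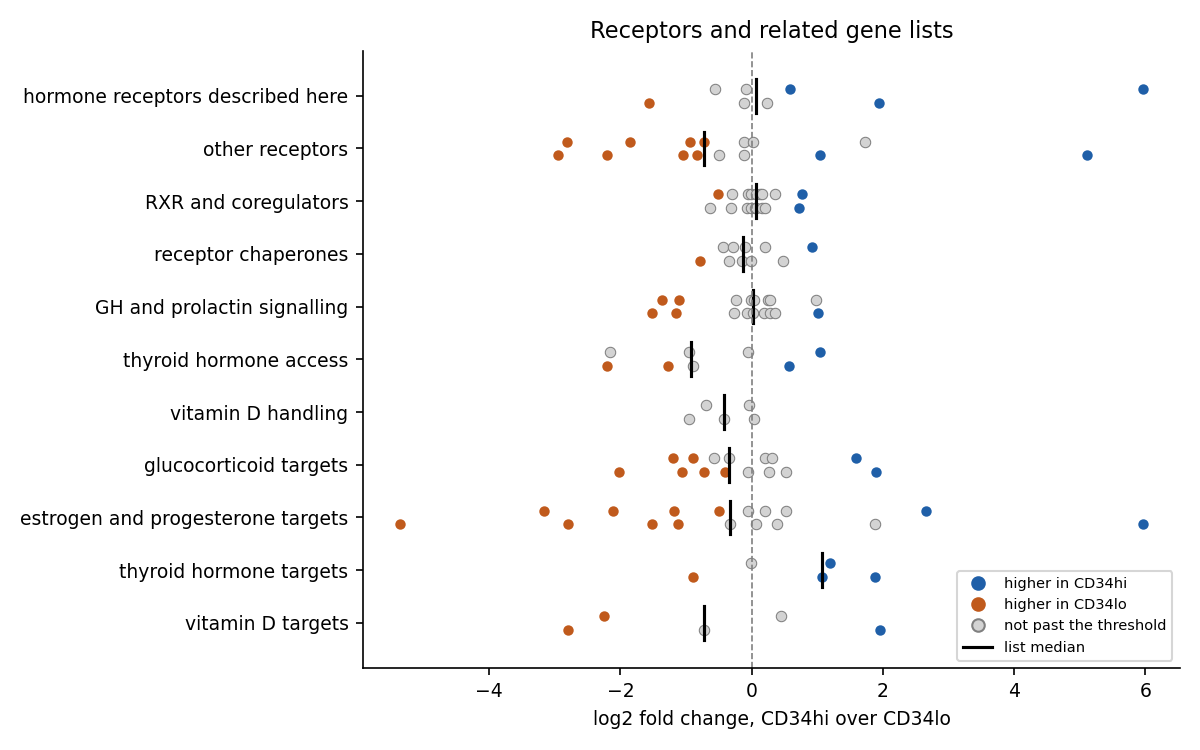
Log2 fold change of CD34hi over CD34lo for the tested genes of the 9 receptors and of the 10 lists of related genes, cell type markers left out, 1 point per gene, colored by the call, with a black bar at the list median. The medians run from -0.93 for thyroid hormone access to 1.07 for thyroid hormone targets, and each of these lists but vitamin D handling holds calls in both directions.

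*Esr1*, *Pgr* and *Prlr* are also expressed by the hormone-sensing luminal cells of the mammary epithelium, so markers of luminal and other cell types were measured beside them. The luminal list was not restricted to hormone-sensing cells. The 10 luminal markers had a summed level of 44.4 to 55.4 CPM in CD34lo and 70.1 to 101 CPM in CD34hi libraries, with 1 (*Krt19*) higher in CD34hi and 1 (*Cited1*, -2.11, adjusted p = 0.000291) in CD34lo fibroblasts. *Krt19* and *Cited1* were then left out because they had passed the threshold. The other 8 luminal markers summed to 31.4 to 40.1 CPM in CD34lo and 32.1 to 42.2 CPM in CD34hi libraries. As genes were removed by their result, the closeness of these sums follows in part from that choice and carries no test. The defining luminal genes *Epcam* (log2 fold change 0.31), *Krt8* (0.06) and *Krt18* (0.13) did not pass the test, and *Foxa1* was below 1 CPM in every library. Of 4 basal markers only *Oxtr*, itself a receptor described above, was higher in CD34hi fibroblasts, and *Krt5*, *Krt14* and *Trp63* did not pass, with summed levels of all 4 of 3.60 to 3.86 CPM in CD34lo and 9.50 to 18.6 CPM in CD34hi libraries.

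Of 6 endothelial markers, *Tek* (3.95, adjusted p = 1.67e-05) and *Kdr* (3.14, adjusted p = 9.79e-05) were higher in CD34hi fibroblasts and *Cdh5* (-1.29, adjusted p = 0.00778) and *Pecam1* (-1.14, adjusted p = 0.039) in CD34lo fibroblasts, so the markers of this cell type did not move together. The Lin gate depletes endothelial and blood cells. Their summed level was 57.3 to 98.0 CPM in CD34lo and 536 to 698 CPM in CD34hi libraries, mostly from *Tek*. The *Cdh5* call was lost without pool 3 (adjusted p = 0.0777), and that of *Pecam1* without pool 1 (0.0528), pool 3 (0.221), or any 1 library but the CD34hi one of pool 2 (0.0587 to 0.128). Of 5 pericyte markers 1 was higher in CD34hi and 3 in CD34lo fibroblasts, with sums of 101 to 197 CPM in CD34lo and 133 to 190 CPM in CD34hi libraries. Of 4 Schwann cell markers, *Mbp* was higher in CD34hi and 2 were higher in CD34lo fibroblasts, with sums of 15.1 to 17.9 CPM in CD34lo and 37.9 to 48.4 CPM in CD34hi libraries. Of 6 leukocyte markers 3 were tested with a median of -0.71, and *Cd3e* was higher in CD34hi fibroblasts (1.98, adjusted p = 0.00228), while *Cd68* (-0.71, adjusted p = 0.0563) and *Csf1r* (-0.96, adjusted p = 0.115) did not pass. The leukocyte sums were 6.88 to 10.5 CPM in CD34lo and 16.8 to 19.4 CPM in CD34hi libraries, of which *Cd3e* made up 1.67 to 5.43 and 13.9 to 16.0 CPM. *C1qa* had 0.855 ± 0.768 and 0.136 ± 0.0810 CPM, and *Ptprc* (44 counts in all) and *Adgre1* (4 counts) were near 0. Of 5 adipocyte markers 2 were tested, and *Plin1* was higher in CD34lo fibroblasts, with sums of 0.900 to 2.08 CPM in CD34lo and 0.268 to 1.35 CPM in CD34hi libraries, a call lost without pool 1 (adjusted p = 0.0818). The fibroblast markers were abundant in all libraries, and 4 of 6 were higher in CD34lo fibroblasts (1 without pool 1 or pool 2, and 2 without the CD34hi library of either), among them *Lum* (-1.28, adjusted p = 0.000454), *Col1a1* (-0.87, adjusted p = 0.00808) and *Pdgfra* (-0.74, adjusted p = 0.0148). The *Col1a1* call was lost without pool 1 (adjusted p = 0.125) or pool 2 (0.0677), and that of *Pdgfra* without pool 1 (0.0586), pool 2 (0.117), the CD34hi library of pool 1 (0.0698) or 2 (0.0677) or the CD34lo library of pool 3 (0.0534). The part of any of these cell types in the receptor differences was not tested.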

How the data were processed

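RNA-seq of polyadenylated RNA (TruSeq RNA v2, NextSeq 500) was measured in 6 libraries, 3 of CD34hi and 3 of CD34lo fibroblasts. Per the study's methods, the authors used Rsubread for alignment (GRCm38/mm10) and for counting per gene, and the deposited counts are whole numbers that were neither normalized nor filtered. The annotation and strand setting are not given in the sources used here. The authors tested with voom and limma.

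Symbols came from a RefSeq gene table, which named 25275 of 27179 genes. In R 4.3.3, edgeR 4.0.16 applied filterByExpr by population (15219 genes kept), TMM and the quasi-likelihood test (glmQLFit, glmQLFTest) of CD34hi against CD34lo, with Benjamini-Hochberg adjustment over all tested genes and a threshold of 0.05. SE was derived from the F statistic. CPM used TMM-scaled totals, and log2 CPM a prior count of 2. RPKM divided CPM by the gene length of the count table. The common coefficient of variation between libraries was 19.7%. Replicate libraries differed beyond sampling noise (chi-square over its degrees of freedom 22.3 or more), so none was a copy. Floors cover counting error only.

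Libraries with the same number came from the same mice, which pairs them, and the correlations of their deviations from the population means were 0.279, 0.0844 and 0.243. The unpaired test was taken first because the study's methods name no pool term. Alternatives were the replicate block (edgeR and limma-voom), limma-voom (limma 3.58.1), DESeq2 1.42.0, RLE and upper-quartile scaling, no filter on low counts, and the omission of each single pool or library. An exact permutation test of 3 libraries against 3 was not used.

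The genes named are the 9 receptors, up to 3 genes per direction with the largest fold change among those past the threshold in each of 18 lists, *Cd34* and *Pdgfra*, and the 2 genes most similar to each receptor. Other genes, among them *Greb1*, *Nr1d1* and list members that did not pass or passed only with the replicate block, were named after their values were seen. Values of some genes that this rule covers are not reported here. The receptors and lists were chosen with earlier results of these data known.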

Additional observations from a re-analysis of the deposited data

How the results depend on the processing

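Over 8 receptors and 16 alternatives, each receptor kept its side of the threshold in all 128 comparisons. *Esr1* (1.83 to 2.19), *Pgr* (4.83 to 6.71), *Thra* (0.53 to 0.65) and *Prlr* (-1.80 to -1.40) passed in 16 of 16, and *Nr3c1* (0.18 to 0.32), *Ghr* (-0.38 to 0.10), *Thrb* (-0.39 to 0.13) and *Vdr* (-0.87 to 0.19) in 0 of 16. The number of receptors that differed was 4 with and without the replicate block, and 4 with every pool or library left out. The sign turned in 6 comparisons of receptors that never passed: *Vdr* to 0.19 without pool 1 and 0.07 without its CD34lo library, *Thrb* to 0.02 without pool 1, 0.05 without pool 2 and 0.13 without the CD34hi library of pool 1, and *Ghr* to 0.10 without that library. Over 51 other named genes, 717 of 814 comparisons kept direction and side of the threshold, 90 lost the call, 7 gained it and 0 turned in sign, and *Gper1* gave no value without pool 1 or its CD34lo library, where it failed the filter. Of those named, the replicate block changed the calls of *Greb1*, *Nr3c2*, *Stat5b*, *Dio3*, *Ptpn6* and *Slco1c1*. Over all tested genes, 5411 differed, or 3468 without pool 1, and all tested genes higher in CD34hi fibroblasts were 1608 without pool 1 and 1656 without pool 2 in place of 2570. The median log2 fold change of all tested genes was -0.01, and -0.06 with upper-quartile scaling. With 3 pools per population, small differences of *Nr3c1*, *Ghr*, *Thrb* and *Vdr* could not be resolved, and depth limited *Esr2*.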
